A study of Schizosaccharomyces pombe with 10 samples.

Results

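The early-annotated long non-coding RNAs of fission yeast are the transcripts that carry the lowest systematic numbers, SPNCRNA.1 to SPNCRNA.199, leaving out SPNCRNA.103. The deposited table of 6661 features held 151 such identifiers, and 70 of them had 20 or more counts summed over the 10 libraries, which is the set described here. Of the other 81, 63 had no count in any library and 18 had 1 to 19. The rule used the number of the RNA and this minimum. An RNA with few counts can reach the minimum through a treated group alone, and counts over the set are therefore given as a description.

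A long non-coding RNA is a transcript without a long reading frame that is not a transfer, ribosomal, small nuclear or small nucleolar RNA. In fission yeast many such transcripts are made next to or across protein-coding genes and are removed by the nuclear exosome. In some cases the protein Mmi1 first binds a short motif in them. The low numbers gather RNAs of unlike kinds. They hold the catalytic or structural RNAs of RNase MRP, RNase P and the signal recognition particle, the prl transcripts (poly(A)-bearing RNAs first met in cDNA collections), RNAs of sexual development, and transcripts with no symbol.

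The 5 groups were untreated cells of strain PT286, which the series calls wild type without giving its genotype, and the same strain exposed to 1 of 4 agents, with 2 RNA-seq libraries of total RNA in each group. Cells were grown at 30 °C for 16 h in the rich medium YES, and treated cells were then moved to new medium with the agent and taken at 8 h. Phleomycin (5 µg/mL) cuts DNA, methyl methanesulfonate (MMS, 0.02 %) alkylates it, hydroxyurea (10 mM) starves replication of nucleotides by blocking ribonucleotide reductase, and camptothecin (20 µM) holds topoisomerase I on cut DNA. The labels do not say whether untreated cells had a change of medium or the same further time, so a difference from untreated cells cannot be told apart from one of culture. Library totals ran from 37301356 to 48598533 counts. Whether paired libraries of a group are separate cultures is stated nowhere in the labels; p-values here measure the spread between libraries, which may be technical. All 4 comparisons with untreated cells use the same 2 untreated libraries.

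Levels are in CPM, counts at a common library total after scaling that brings the median protein-coding gene level, and are given for replicate 1 and then replicate 2. Log2 values give the treated level over the untreated one ± SE, from edgeR's quasi-likelihood test over all 5819 features with 20 or more counts. An RNA is said to have risen or fallen where its p, Benjamini-Hochberg adjusted over those 5819 features, was below 0.05. No source used here states the authors' annotation or whether counting used the strand. Names, chromosomes, overlaps and sequences come from RefSeq's annotation of ASM294v3, in which 67 of the 70 RNAs were found. The 3 that were not found are SPNCRNA.01, SPNCRNA.197 and SPNCRNA.99. RefSeq lists prl46 (SPNCRNA.46) as a protein-coding gene.

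The sequences of 5 RNAs are shown because each stands for a kind of response described below. The first, srp7 on the plus strand of chromosome I, is the abundant scaffold of the signal recognition particle. SPNCRNA.175 (chromosome I, plus strand), SPNCRNA.117 (chromosome II, plus strand), prl12 (chromosome I, plus strand) and SPNCRNA.166 (chromosome I, plus strand) were highest under camptothecin, hydroxyurea, MMS and phleomycin, in that order. Each is printed 5′ to 3′ on its own strand from the first base that RefSeq gives for the RNA, over at most 300 bases, and capitals mark TNAAAC, the core of the motif that Mmi1 binds, written as DNA.
srp7: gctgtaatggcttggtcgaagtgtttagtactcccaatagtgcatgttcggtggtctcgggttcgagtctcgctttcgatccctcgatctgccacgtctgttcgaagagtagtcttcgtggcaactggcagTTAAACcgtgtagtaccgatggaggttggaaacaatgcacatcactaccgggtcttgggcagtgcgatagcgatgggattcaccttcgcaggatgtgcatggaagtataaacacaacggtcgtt
SPNCRNA.175: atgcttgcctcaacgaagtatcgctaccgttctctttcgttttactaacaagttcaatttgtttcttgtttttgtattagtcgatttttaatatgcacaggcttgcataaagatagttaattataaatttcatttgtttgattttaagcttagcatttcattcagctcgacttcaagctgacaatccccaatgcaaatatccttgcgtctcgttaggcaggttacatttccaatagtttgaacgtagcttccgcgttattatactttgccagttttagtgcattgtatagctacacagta
SPNCRNA.117: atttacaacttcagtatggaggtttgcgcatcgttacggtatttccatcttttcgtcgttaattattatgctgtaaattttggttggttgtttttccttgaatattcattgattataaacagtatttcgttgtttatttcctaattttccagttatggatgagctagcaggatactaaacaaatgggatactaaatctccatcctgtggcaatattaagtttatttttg
prl12: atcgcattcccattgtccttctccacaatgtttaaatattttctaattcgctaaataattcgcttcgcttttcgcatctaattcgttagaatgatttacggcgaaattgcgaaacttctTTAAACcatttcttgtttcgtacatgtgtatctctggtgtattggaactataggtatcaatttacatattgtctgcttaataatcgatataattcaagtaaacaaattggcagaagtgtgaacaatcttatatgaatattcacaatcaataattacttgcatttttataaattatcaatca
SPNCRNA.166: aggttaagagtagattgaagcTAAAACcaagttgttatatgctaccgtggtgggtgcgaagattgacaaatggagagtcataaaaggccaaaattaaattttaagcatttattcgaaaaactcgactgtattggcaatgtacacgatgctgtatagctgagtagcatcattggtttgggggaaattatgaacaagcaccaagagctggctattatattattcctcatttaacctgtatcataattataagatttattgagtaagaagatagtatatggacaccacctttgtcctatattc
The whole spans are 255 bases for srp7, 695 for SPNCRNA.175, 229 for SPNCRNA.117, 334 for prl12 and 428 for SPNCRNA.166. In the whole spans the motif was found 2 times in SPNCRNA.175 (not in the stretch shown), 1 time each in srp7, prl12 and SPNCRNA.166, and not in SPNCRNA.117. It was searched on the transcript strand only. Over the first 300 bases, 31 of the 56 early-annotated RNAs that are this long held it (55.4 %), against 47.3 % of later-numbered non-coding RNAs, 42.6 % of protein-coding genes and 43.5 % of all features. Per kb of whole span, the motif occurred 1.92 times in the early-annotated RNAs and 1.99 times in later-numbered non-coding RNAs. It occurred 1.76 times in protein-coding genes and 1.79 times over all features. A match is a description of letters, and binding was not measured.

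The 4 most abundant of the 70 RNAs took nearly all of their counts. Together mrp1, rrk1, srp7 and prl53 held 98.51 to 99.22 % of the counts of the set in each library. The whole set took 2.86 and 2.9 % of the counts of the untreated libraries, and 4.70 and 4.78 % under camptothecin. With hydroxyurea the share was 2.83 and 2.88 %, with MMS 2.99 and 3.04 %, and with phleomycin 3.43 and 3.48 %. The other 66 RNAs summed to 226.8 and 229.9 CPM in untreated cells. Their sum was 559 and 542 CPM under camptothecin, 393 and 389 CPM under hydroxyurea, 394 and 388 CPM under MMS, and 356 and 353 CPM under phleomycin, so that every treated library lay above both untreated ones. Much of that sum lay in prl58, omt3, rse1 and prl59, with 34017, 20965, 20581 and 20077 counts over the 10 libraries. The next RNA, prl32, had 5826 counts, so the sum says little of the less abundant RNAs. Per RNA, the counts summed over the 10 libraries ran from 22 to 6129477 with a median of 715, and 14 RNAs had under 100.

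The RNA of RNase MRP, an enzyme that cuts precursors of ribosomal RNA, was the most abundant of the set. The level of mrp1 was 13046 and 13174 CPM in the untreated libraries, 19645 and 19633 CPM in the camptothecin libraries, 11077 and 11180 CPM in the hydroxyurea libraries, 13568 and 13505 CPM in the MMS libraries, and 16764 and 16676 CPM in the phleomycin libraries. The camptothecin and phleomycin libraries lay above all others, and the hydroxyurea libraries lay below all others. It rose under camptothecin (0.58 ± 0.012, adjusted p = 6.09e-53) and phleomycin (0.35 ± 0.012) and fell under hydroxyurea (-0.24 ± 0.012). The change under MMS was past the test but small (0.05 ± 0.012), and its sign turned with TMM scaling (-0.02) and with DESeq2 (-0.02).

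The RNA of RNase P, which trims the leader from transfer RNA precursors, followed a similar order. The level of rrk1 was 9794 and 10053 CPM in the untreated libraries, 15824 and 16639 CPM in the camptothecin libraries, 6805 and 7079 CPM in the hydroxyurea libraries, 9220 and 9777 CPM in the MMS libraries, and 10314 and 10804 CPM in the phleomycin libraries. It rose under camptothecin (0.71 ± 0.018, 1.64-fold) and fell under hydroxyurea (-0.52 ± 0.018, 1.43-fold lower). Each hydroxyurea library lay below each of the other 8. The fall under MMS (-0.06 ± 0.018) no longer passed without MMS replicate 1 (-0.02, adjusted p = 0.288) or without untreated replicate 2 (-0.04, adjusted p = 0.106). The rise under phleomycin (0.09 ± 0.018) did not pass with TMM scaling (0.0036) and turned in sign with DESeq2 (-0.0053) and with quantile normalization (-0.48). Quantile normalization gives each rank the same value in every library, so the last value follows the rank of rrk1 alone. Between the agents, rrk1 was 1.54-fold higher with camptothecin than with phleomycin (0.62 ± 0.018 on the log2 scale, adjusted p = 6.53e-45).

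The 7SL RNA, on which the signal recognition particle that brings secreted proteins to the endoplasmic reticulum is built, rose under all 4 agents. The level of srp7 was 2914 and 3026 CPM in the untreated libraries, 6387 and 6730 CPM in the camptothecin libraries, 3307 and 3508 CPM in the hydroxyurea libraries, 3113 and 3304 CPM in the MMS libraries, and 4628 and 4878 CPM in the phleomycin libraries. All treated libraries lay above both untreated ones, and camptothecin and phleomycin stood apart from the rest. The log2 fold changes were 1.14 ± 0.020 with camptothecin, 0.20 ± 0.020 with hydroxyurea, 0.11 ± 0.020 with MMS and 0.68 ± 0.020 with phleomycin. The MMS change did not pass with TMM scaling (0.04, adjusted p = 0.0552) or DESeq2 (0.04, adjusted p = 0.504).

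Compared per kb of annotated span, the order of the abundant RNAs differs from that of their CPM. The mean level over the 10 libraries was 37160 CPM per kb for mrp1, 16390 CPM per kb for srp7, 11905 CPM per kb for rrk1 and 2198 CPM per kb for prl53. The next RNAs were at 183 CPM per kb (prl58), 108 CPM per kb (prl59) and 51.6 CPM per kb (omt3).

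**Figure D1:**
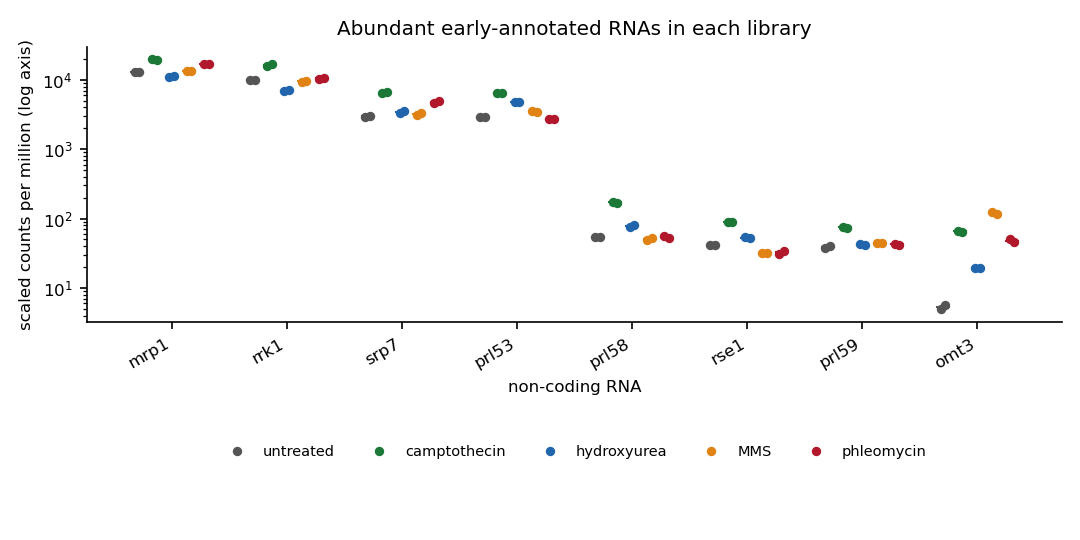
Scaled CPM (log axis) of 8 abundant early-annotated RNAs, with 1 point per library, a short line at the mean of the 2 libraries and 1 colour per group. Camptothecin libraries stand highest for the first 7 RNAs. With MMS, omt3 rises from 4.94 and 5.6 CPM in untreated cells to 123 and 117 CPM. Under quantile normalization the camptothecin changes of mrp1 and rrk1 are 0. That method gives each rank the same value in every library, so an RNA that keeps its rank cannot change under it.

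Among the poly(A)-bearing transcripts, prl53 was by far the most abundant and changed in both directions. It had 2930 and 2923 CPM in the untreated libraries, 6495 and 6453 CPM in the camptothecin libraries, 4732 and 4739 CPM in the hydroxyurea libraries, 3503 and 3462 CPM in the MMS libraries, and 2733 and 2734 CPM in the phleomycin libraries. No 2 groups overlapped. It rose under camptothecin (1.15 ± 0.014), hydroxyurea (0.69 ± 0.014) and MMS (0.25 ± 0.014), and fell slightly under phleomycin (-0.10 ± 0.014, or 0.01 with quantile normalization). Its annotated span overlaps the coding gene SPAC27E2.11c on the same strand, which moved by 1.18, 1.03, 0.36 and 0.07 on the log2 scale under camptothecin, hydroxyurea, MMS and phleomycin. Other features cover 18.0 % of the span of prl53, which had 1687184 counts over the 10 libraries against 92545 for SPAC27E2.11c. Which of the overlapping features the shared reads came from cannot be told apart.

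The transcripts prl58 and prl59 responded chiefly to camptothecin. The level of prl58 was 53.6 and 54.3 CPM in the untreated libraries, 174 and 170 CPM in the camptothecin libraries, 74.8 and 80.8 CPM in the hydroxyurea libraries, 49.3 and 52.9 CPM in the MMS libraries, and 56.7 and 52.8 CPM in the phleomycin libraries. It rose 3.19-fold with camptothecin (1.67 ± 0.044) and 1.44-fold with hydroxyurea (0.53 ± 0.046), while its changes with MMS (-0.08 ± 0.048, adjusted p = 0.132) and phleomycin (0.02 ± 0.047, adjusted p = 0.693) did not pass. The MMS change passed as a fall with TMM scaling (-0.14, adjusted p = 0.00503) and with DESeq2 (-0.15, adjusted p = 0.00987). The phleomycin libraries lay on both sides of the untreated ones. For prl59 the levels were 38.0 and 40.5 CPM in untreated cells and 75.1 and 73.8 CPM in the camptothecin libraries (0.92 ± 0.053), while the other 6 treated libraries lay between 41.1 and 45.1 CPM. Its rise with MMS (0.18 ± 0.056) did not pass with TMM scaling, DESeq2 or quantile normalization, nor without untreated replicate 1 (0.14, adjusted p = 0.0569).

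Several prl transcripts that were scarce in untreated cells rose under every agent with scaling by protein-coding genes. The level of prl50 was 0.977 and 1.24 CPM in the untreated libraries, 9.80 and 9.43 CPM in the camptothecin libraries, 4.68 and 3.94 CPM in the hydroxyurea libraries, 3.12 and 3.54 CPM in the MMS libraries, and 3.97 and 2.92 CPM in the phleomycin libraries. It was 8.64-fold higher with camptothecin (3.11 ± 0.22), and higher there than with hydroxyurea (1.16 ± 0.18, adjusted p = 3.11e-08). Its change with phleomycin was 1.62 on the log2 scale, but 0.40 with quantile normalization (limma, adjusted p = 0.0849). It lies on the opposite strand 140 bases from meu13, a gene of meiotic recombination, which rose by 1.73, 1.86, 1.98 and 2.25 on the log2 scale under the 4 agents in the same order.

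In contrast to prl50, prl12 was highest with MMS. It had 0.200 and 0.225 CPM in the untreated libraries, 1.31 and 1.29 CPM in the camptothecin libraries, 1.61 and 1.22 CPM in the hydroxyurea libraries, 7.69 and 7.82 CPM in the MMS libraries, and 3.61 and 3.75 CPM in the phleomycin libraries. The MMS level was 35.9-fold that of untreated cells (5.17 ± 0.32, adjusted p = 6.87e-25) and 2.11-fold that with phleomycin (1.08 ± 0.21, adjusted p = 3.79e-06). The nearest coding gene, the leucine synthesis gene leu2, moved by 0.18, 0.20, 0.18 and -0.32 on the log2 scale.

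The transcript prl51 separated camptothecin from the other agents. Its level was 0.150 and 0.270 CPM in untreated cells and 0.471 and 0.798 CPM in the camptothecin libraries, but 4.70 and 4.69 CPM in the hydroxyurea libraries, 3.28 and 3.29 CPM in the MMS libraries, and 4.10 and 4.49 CPM in the phleomycin libraries. The log2 fold changes were 4.44 ± 0.34, 3.93 ± 0.36 and 4.31 ± 0.35 for the last 3 agents. The rise with camptothecin (1.52 ± 0.47, adjusted p = 0.00306) did not pass without camptothecin replicate 2 (1.14, adjusted p = 0.0739). Its neighbour on the same strand, the meiotically upregulated gene mug42, rose by 2.58, 2.51 and 2.54 on the log2 scale under hydroxyurea, MMS and phleomycin, and its change with camptothecin was 0.62 (adjusted p = 0.0583).

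The untreated libraries of prl14 were uneven. It had 0.0501 and 0.382 CPM in untreated cells (2 and 17 counts) against 16.2 and 14.4 CPM in the camptothecin libraries, 2.01 and 1.45 CPM in the hydroxyurea libraries, 2.11 and 2.42 CPM in the MMS libraries, and 3.15 and 3.86 CPM in the phleomycin libraries. All treated libraries lay above both untreated ones. The log2 fold changes were 6.08 ± 0.29, 2.93 ± 0.38, 3.32 ± 0.36 and 3.95 ± 0.34, and the level with camptothecin was 4.36-fold that with phleomycin. Of its span, 50.9 % is overlapped by the splicing gene ntr1 on the opposite strand, whose own log2 fold changes lay between -0.21 and 0.12.

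A smaller rise in every comparison was that of prl68, with 0.301 and 0.292 CPM in untreated cells and 2.71 CPM in both phleomycin libraries (3.18 ± 0.39). Its levels were 0.814 and 0.935 CPM in the camptothecin libraries (1.54 ± 0.45), 0.827 and 1.59 CPM in the hydroxyurea libraries (2.02 ± 0.43), and 1.95 and 1.36 CPM in the MMS libraries (2.46 ± 0.41). The phleomycin level exceeded that with MMS (adjusted p = 0.025). With quantile normalization the hydroxyurea change was 0.63 and did not pass (limma, adjusted p = 0.122).

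A few prl values rest on spans that other features cover. The span of prl61 is covered to 92.1 % by other features, and the coding gene SPAC186.07c lies across it on the opposite strand. The untreated libraries gave 0 and 2 counts, the camptothecin libraries 440 and 318, the hydroxyurea libraries 18 and 20, the MMS libraries 21 and 8, and the phleomycin libraries 44 and 53. The ratio of scaled counts with camptothecin to untreated was 385, with an exact 95 % interval of 106 to 3185 that covers counting error only. The interval takes counts as independent, which is unsure because low counts were more often even than odd. SPAC186.07c itself rose by 6.71, 2.68, 1.93 and 4.20 on the log2 scale in the 4 comparisons.

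Among all 70 RNAs, prl32 alone fell in each of the 4 comparisons. It had 18.9 and 20.0 CPM in the untreated libraries, 15.6 and 14.5 CPM in the camptothecin libraries, 14.9 CPM in both hydroxyurea libraries, 13.5 and 12.4 CPM in the MMS libraries, and 7.99 and 7.66 CPM in the phleomycin libraries. The fall with phleomycin was -1.31 ± 0.11 on the log2 scale. The whole span of prl32 is covered by other features, so its counts are uncertain. The fall of prl54 under MMS (-0.75 ± 0.23) and phleomycin (-0.69 ± 0.23) went with that of the checkpoint clamp gene hus1 (-0.61 and -0.48), which overlaps it on the opposite strand. Without untreated replicate 1 neither change of prl54 passed (-0.53, adjusted p = 0.0759, and -0.47, adjusted p = 0.107).

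RNAs of sexual development formed a further group, all measured in cells that the labels do not describe as mating or starved. The RNA omt3, which RefSeq describes as a meiosis-specific RNA of Smp foci on chromosomes, rose 22.7-fold with MMS. Its level was 4.94 and 5.6 CPM in the untreated libraries, 67.3 and 64.6 CPM in the camptothecin libraries, 19.1 and 19.3 CPM in the hydroxyurea libraries, 123 and 117 CPM in the MMS libraries, and 50.2 and 46.3 CPM in the phleomycin libraries. No groups overlapped. The log2 fold changes were 3.64 ± 0.073, 1.86 ± 0.085, 4.50 ± 0.070 and 3.19 ± 0.075, and the MMS level was 1.81-fold that with camptothecin (adjusted p = 3.61e-26). The neighbouring gene omt2 moved by 0.75, 0.62, -0.20 and 0.24.

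The RNA rse1, annotated as a cis-acting repressor of ste11, rose under some agents and fell under others. It had 41.7 and 41.5 CPM in the untreated libraries, 88.1 and 89.5 CPM in the camptothecin libraries, 54.3 and 51.8 CPM in the hydroxyurea libraries, 31.9 and 31.6 CPM in the MMS libraries, and 31.0 and 34.1 CPM in the phleomycin libraries. It rose with camptothecin (1.09 ± 0.052) and hydroxyurea (0.35 ± 0.054) and fell with MMS (-0.39 ± 0.057) and phleomycin (-0.35 ± 0.057). The gene ste11 encodes the transcription factor that starts sexual development, and it had 47.3 and 45.1 CPM in untreated cells and 89.3 and 90.0 CPM in the camptothecin libraries. In the same libraries ste11 rose with camptothecin (0.96 ± 0.053) and hydroxyurea (0.22 ± 0.055), fell with MMS (-0.67 ± 0.059), and was at -0.09 ± 0.056 with phleomycin (adjusted p = 0.142).

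The RNAs meu3 and meu19, found among transcripts that rise in meiosis, each have a near-identical copy in the genome and are therefore uncertain. The level of meu3 was 0.451 and 0.135 CPM in the untreated libraries, 1.11 and 0.880 CPM in the camptothecin libraries, 10.7 and 12.0 CPM in the hydroxyurea libraries, 4.96 and 3.75 CPM in the MMS libraries, and 11.1 and 9.78 CPM in the phleomycin libraries. It rose in all 4 comparisons (1.81 ± 0.38, 5.30 ± 0.26, 3.92 ± 0.30 and 5.18 ± 0.27). For meu19, the camptothecin libraries (3.51 and 2.67 CPM) did not lie above the untreated ones (3.61 and 3.55 CPM; -0.19 ± 0.16, adjusted p = 0.274). With quantile normalization meu19 fell with camptothecin (-0.48, limma, adjusted p = 0.00275). Its levels were 27.1 and 24.0 CPM in the hydroxyurea libraries (2.83 ± 0.12), 13.2 and 13.9 CPM in the MMS libraries (1.92 ± 0.13), and 16.7 and 17.7 CPM in the phleomycin libraries (2.27 ± 0.13).

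Of the RNAs without a symbol that reached 1 CPM in a group, SPNCRNA.175 rose most with camptothecin. It had 0.777 and 0.967 CPM in the untreated libraries, 23.4 and 19.9 CPM in the camptothecin libraries, 2.83 and 2.25 CPM in the hydroxyurea libraries, 1.41 and 1.36 CPM in the MMS libraries, and 2.69 and 2.88 CPM in the phleomycin libraries. The camptothecin libraries lay far above all others, with a 24.7-fold rise over untreated cells (4.62 ± 0.20, adjusted p = 6.62e-34) and a 7.78-fold difference from phleomycin (2.96 ± 0.17). The change with MMS (0.66 ± 0.27, adjusted p = 0.0231) was lost without untreated replicate 1 (0.52), without MMS replicate 1 (0.63) and without MMS replicate 2 (0.69), and was negative with quantile normalization (-0.44). The same normalization ended the calls with hydroxyurea (0.34, limma, adjusted p = 0.15) and phleomycin (0.32, adjusted p = 0.168).

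SPNCRNA.117 rose most with hydroxyurea. It had 0.376 and 0.315 CPM in the untreated libraries, 0.321 and 0.550 CPM in the camptothecin libraries, 3.61 and 3.80 CPM in the hydroxyurea libraries, 0.801 and 0.581 CPM in the MMS libraries, and 1.74 and 1.47 CPM in the phleomycin libraries. The camptothecin and untreated libraries overlapped (0.30 ± 0.49, adjusted p = 0.601). It was 10.7-fold higher with hydroxyurea (3.42 ± 0.35) and 4.63-fold higher with phleomycin (2.21 ± 0.39), and the hydroxyurea level was 2.31-fold that with phleomycin (adjusted p = 9.88e-05). The MMS change (0.99 ± 0.45, adjusted p = 0.0393) was lost without MMS replicate 1 (0.75), without untreated replicate 1 (1.12) and without untreated replicate 2 (0.87), and was negative with quantile normalization (-0.23), which also ended the phleomycin call (0.64, limma, adjusted p = 0.104). With TMM scaling the MMS change did not pass either (0.93, adjusted p = 0.0549). The gene ecl3, named for extending chronological lifespan, lies on the other strand and moved by 1.18 with hydroxyurea and 1.45 with phleomycin, and by -0.38 and 0.12 with camptothecin and MMS, which did not pass.

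SPNCRNA.166 was nearly absent from untreated cells and highest with phleomycin. The untreated libraries gave 4 and 0 counts, the camptothecin libraries 8 and 12, the hydroxyurea libraries 47 and 52, the MMS libraries 22 and 12, and the phleomycin libraries 87 and 88. It rose with hydroxyurea (4.53 ± 0.66), MMS (3.11 ± 0.81) and phleomycin (5.40 ± 0.60), and the phleomycin level was 1.82-fold that with hydroxyurea (adjusted p = 0.021). The camptothecin change (2.28 ± 0.91, adjusted p = 0.0222) did not pass without camptothecin replicate 2 (1.79) or without untreated replicate 2 (1.25). The gene rad4, needed to start replication and for the checkpoint, lies 108 bases away on the other strand and rose by 0.63, 0.56 and 0.61 under hydroxyurea, MMS and phleomycin.

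SPNCRNA.187 rose under 3 agents, from 0.301 and 0.450 CPM in untreated cells to 1.37 and 1.10 CPM in the hydroxyurea libraries (1.70 ± 0.41), 2.54 and 1.86 CPM in the MMS libraries (2.53 ± 0.38), and 1.23 and 1.63 CPM in the phleomycin libraries (1.92 ± 0.40). With camptothecin it had 0.706 and 0.578 CPM (0.77 ± 0.45, adjusted p = 0.124). With quantile normalization the hydroxyurea change (0.47, limma, adjusted p = 0.247) and the phleomycin change (0.40, adjusted p = 0.308) did not pass, and the MMS change was 1.39.

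**Figure D2:**
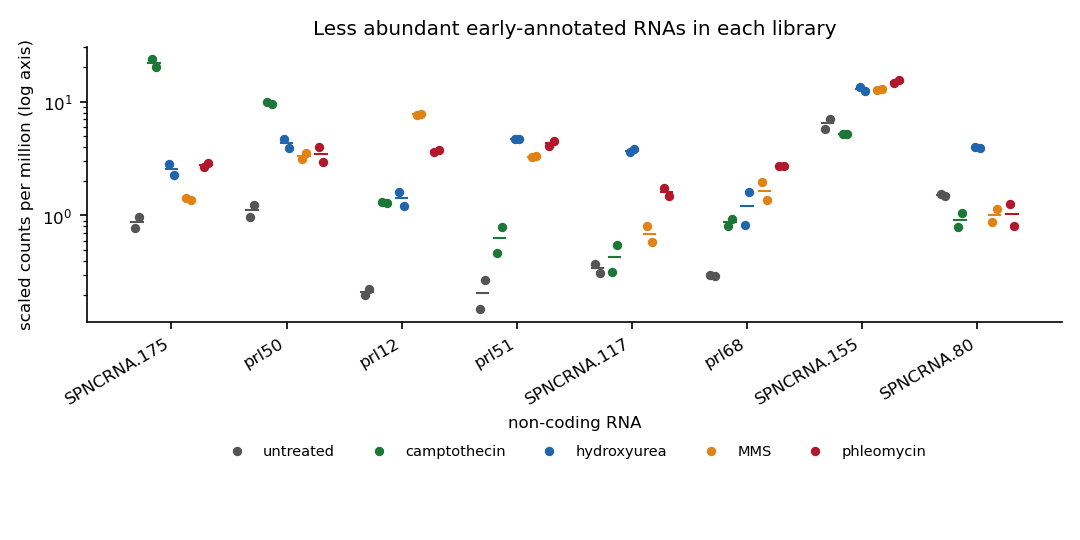
Scaled CPM (log axis) of 8 less abundant early-annotated RNAs, with 1 point per library, a short line at the mean of the 2 libraries and 1 colour per group. SPNCRNA.175 and prl50 stand highest with camptothecin, prl12 with MMS, SPNCRNA.117 and SPNCRNA.80 with hydroxyurea and prl68 with phleomycin, while prl51 reaches 3.28 to 4.70 CPM under every agent but camptothecin; with quantile normalization the phleomycin change of prl50 (0.40) and the hydroxyurea changes of prl68 (0.63), SPNCRNA.80 (0.37) and SPNCRNA.175 (0.34) do not pass.

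Some RNAs without a symbol fell with camptothecin and rose with another agent. SPNCRNA.155 had 5.76 and 7.08 CPM in untreated cells and 5.16 and 5.20 CPM in the camptothecin libraries (-0.31 ± 0.14, adjusted p = 0.0393). Its levels with hydroxyurea, MMS and phleomycin lay between 12.5 and 15.3 CPM (1.0 ± 0.13, 0.98 ± 0.13 and 1.21 ± 0.12). The camptothecin call was lost without untreated replicate 2 (-0.15), without camptothecin replicate 1 (-0.31) and without camptothecin replicate 2 (-0.32).

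SPNCRNA.80 had 1.55 and 1.48 CPM in the untreated libraries, 0.792 and 1.05 CPM in the camptothecin libraries and 3.99 and 3.92 CPM in the hydroxyurea libraries (1.38 ± 0.27). Its fall with camptothecin (-0.74 ± 0.32, adjusted p = 0.0373) was lost without untreated replicate 1 (-0.71), without untreated replicate 2 (-0.77) and without camptothecin replicate 1 (-0.53). Its rise with hydroxyurea did not pass with quantile normalization (0.37, limma, adjusted p = 0.298). SPNCRNA.122 had 1.33 and 1.06 CPM in the untreated libraries, 0.514 and 0.495 CPM in the camptothecin libraries (-1.23 ± 0.38, adjusted p = 0.00292) and 2.20 and 2.99 CPM in the phleomycin libraries (1.13 ± 0.30, or -0.15 with quantile normalization). Its rise with hydroxyurea (0.73 ± 0.30, adjusted p = 0.0244) was lost without hydroxyurea replicate 1 (0.62) and without untreated replicate 2 (0.57), and had a negative sign with quantile normalization (-0.33). It did not pass with DESeq2 either (0.65, adjusted p = 0.0679).

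Among the remaining RNAs that moved in both directions was SPNCRNA.70, which lies near a chromosome end and has near-identical copies, so its counts are uncertain. It had 1.05 and 1.19 CPM in the untreated libraries, 2.27 and 2.28 CPM in the camptothecin libraries (1.01 ± 0.31), 0.567 and 0.446 CPM in the hydroxyurea libraries (-1.15 ± 0.38), 0.320 and 0.266 CPM in the MMS libraries (-1.93 ± 0.43), and 2.89 and 2.0 CPM in the phleomycin libraries (1.11 ± 0.30). The hydroxyurea fall did not pass without hydroxyurea replicate 2 (-0.99, adjusted p = 0.0546). With quantile normalization the camptothecin rise did not pass and the phleomycin change was -0.19.

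SPNCRNA.163 fell with phleomycin (0.154 and 0.0920 CPM against 0.351 and 0.607 CPM; -1.97 ± 0.68, adjusted p = 0.00623) and rose with hydroxyurea (1.18 and 0.797 CPM; 1.03 ± 0.46, adjusted p = 0.0372). Its fall was lost without phleomycin replicate 2 (-1.63) and without untreated replicate 2 (-1.51), and its rise without untreated replicate 1 (0.70) and without hydroxyurea replicate 1 (0.72). The rise also did not pass with TMM scaling (0.97, adjusted p = 0.0505) or DESeq2 (0.96, adjusted p = 0.123), and was negative with quantile normalization (-0.20). On the same strand lies eng1, the glucanase gene of cell separation, which fell by 0.88, 0.76, 2.87 and 2.11 on the log2 scale with camptothecin, hydroxyurea, MMS and phleomycin. SPNCRNA.186, covered to 86.8 % by other features, rose with hydroxyurea (0.92 ± 0.28), which did not pass without hydroxyurea replicate 1 (0.66). Its fall with MMS (-0.72 ± 0.32, adjusted p = 0.0375) did not pass without MMS replicate 1 (-0.34), without untreated replicate 1 (-0.80) or without untreated replicate 2 (-0.63). SPNCRNA.01 passed narrowly with hydroxyurea (0.47 ± 0.19, adjusted p = 0.0233) and phleomycin (-0.47 ± 0.21, adjusted p = 0.0329). Each of these calls was lost without either untreated replicate, the first also without hydroxyurea replicate 1 (0.33) and the second without phleomycin replicate 1 (-0.31). The hydroxyurea call of SPNCRNA.01 was also lost with DESeq2 (0.38, adjusted p = 0.073). Its camptothecin change did not pass, but was a fall past the test with TMM scaling (-0.47, adjusted p = 0.0393), library totals (-0.48, adjusted p = 0.0344) and DESeq2 (-0.47, adjusted p = 0.0408).

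At the lowest counts only bounds can be given. SPNCRNA.147 had no count in either untreated library, and against a floor of 3 counts over the group it was at least 5.96-fold higher with hydroxyurea (12 and 6 counts) and at least 6.82-fold higher with phleomycin (7 and 13 counts). IRC1-R, a border of centromeric heterochromatin with near-identical copies, had 12 and 4 counts in untreated cells and none in the hydroxyurea and MMS libraries, or at least 5.37-fold and 4.98-fold lower. The covered transcript prl2 had 10 and 4 counts in untreated cells and none with MMS, or at least 4.36-fold lower. Just inside the minimum of 20 counts lay SPNCRNA.174 with 22, prl22 with 25 and SPNCRNA.194 with 30, and just outside it prl56 with 19, SPNCRNA.173 with 18, and prl3 and prl38 with 17 each.

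Over the 70 RNAs, rises outnumbered falls in each comparison with untreated cells when libraries were scaled by protein-coding genes. With camptothecin 26 rose and 4 fell, against 37.1 % of all tested features that rose and 32.6 % that fell, so that the share of rises (37.1 %) was that of the background. With hydroxyurea 47 rose and 5 fell, against 44.3 and 34.4 % of all features. With MMS 33 rose and 8 fell, against 43.0 and 36.4 %, and the share of rises (47.1 %) was again near the background. With phleomycin 44 rose and 6 fell, against 46.8 and 35.9 %. With quantile normalization 19 rose and 10 fell with camptothecin (30.5 and 36.6 % of all features), 24 and 9 with hydroxyurea (33.4 and 39.2 %), 18 and 18 with MMS (34.6 and 41.9 %), and 19 and 17 with phleomycin (37.5 and 43.2 %).

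Counts of changes of 2-fold or more stood further from the background. In the 4 comparisons 18, 34, 21 and 37 of the 70 RNAs rose at least 2-fold, or 25.7, 48.6, 30.0 and 52.9 %. The shares over all tested features were 6.65, 13.4, 14.1 and 17.8 %. The 980 non-coding RNAs with numbers of 200 or more had shares of 18.2, 43.7, 40.2 and 48.8 %, so much of the distance from the background was common to both sets of non-coding RNAs. With quantile normalization 12, 13, 11 and 13 of the 70 rose at least 2-fold, against 4.04, 5.31, 8.13 and 9.9 % of all features. Falls of 2-fold or more numbered 1, 2, 3 and 2, against 1.36, 0.928, 3.54 and 4.14 % of all features.

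The median log2 fold change of the 70 RNAs was 0.64 with camptothecin, 1.08 with hydroxyurea, 0.68 with MMS and 1.12 with phleomycin, but with quantile normalization it was -0.05, 0.27, -0.05 and 0.0055. With library totals in place of scaling by protein-coding genes, the median of all tested features with hydroxyurea moved from 0.09 to 0.21. Over all tested features the medians were 0.04, 0.09, 0.07 and 0.11, and over the later-numbered non-coding RNAs they were 0.31, 0.95, 0.77 and 1.06. Among the 29 RNAs with 1000 or more counts, 20, 24, 19 and 21 rose (69.0, 82.8, 65.5 and 72.4 %, against 37.1, 44.3, 43.0 and 46.8 % of all features), and 2, 3, 4 and 5 fell (6.90, 10.3, 13.8 and 17.2 %, against 32.6, 34.4, 36.4 and 35.9 %). Of the 14 with under 100 counts, 1, 2, 0 and 4 rose, and 0, 1, 2 and 0 fell, read against the same shares of all features. Both limits lie on counts summed over the treated and untreated libraries, so an RNA can reach 1000 through a treated group alone. The shares of all features carry no such limit, and these counts are given as a description.

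**Figure D3:**
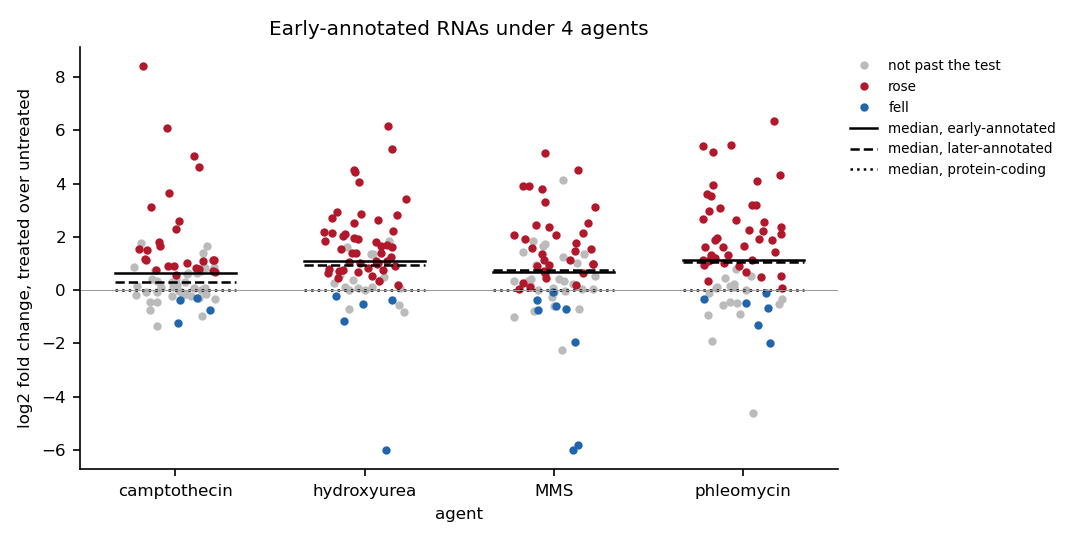
Log2 fold change over untreated cells of the 70 early-annotated RNAs (vertical axis) under each agent (horizontal axis), coloured by the result of the test, with lines at the medians of the 70 RNAs, of later-numbered non-coding RNAs and of protein-coding genes. The medians of the 70 lie at 0.64, 1.08, 0.68 and 1.12 on this scale and at -0.05, 0.27, -0.05 and 0.0055 with quantile normalization; fitted values beyond 6 in size include RNAs with no counts in 1 group, and are not bounds.

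Across the agents, 14 of the 70 RNAs rose in all 4 comparisons, 1 fell in all 4, 11 rose in some and fell in others, and 11 passed in none. The 14 were srp7, omt3, SPNCRNA.175, meu3, prl14, prl50, SPNCRNA.190, SPNCRNA.188, prl36, prl12, prl51, prl61, prl68 and SPNCRNA.166. With quantile normalization 9 of the 14 rose in all 4, and SPNCRNA.175, SPNCRNA.188, SPNCRNA.190, prl50 and prl68 did not. By the same tests, the 14 are the RNAs that were lower in untreated cells than in each treated group. Of all tested features 18.7 % were so, which is near the share of 14 in 70. The 1 RNA that fell in all 4 was higher in untreated cells than in each treated group, as were 15.8 % of all tested features. RNAs that rose in some and fell in others, and RNAs that passed in none, were not counted over all features. Whether 11 of 70 is many or few for either kind therefore cannot be told here. The 11 without a call included SPNCRNA.169, SPNCRNA.99 and SPNCRNA.105 with over 200 counts each.

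Differences between agents were tested directly. By the tests against all 4 other groups, 11 RNAs were highest with camptothecin, 9 with hydroxyurea, 3 with phleomycin, 2 with MMS and 1 in untreated cells. Over all tested features the shares were 10.7 % for camptothecin, 6.91 % for hydroxyurea, 13.9 % for phleomycin, 11.8 % for MMS and 15.8 % for untreated cells. The 11 with the camptothecin maximum were mrp1, rrk1, srp7, prl53, prl58, rse1, prl59, SPNCRNA.175, prl14, prl50 and prl61, among them the 4 most abundant RNAs. The 9 with the hydroxyurea maximum were meu19, prl24, SPNCRNA.199, SPNCRNA.186, prl33, SPNCRNA.80, SPNCRNA.117, prl46 and SPNCRNA.163. These maxima were not recounted under the alternatives. With quantile normalization the hydroxyurea changes of SPNCRNA.163 (-0.20), SPNCRNA.186 (-0.08) and SPNCRNA.80 (0.37) from untreated cells did not pass. Between pairs of agents, 44 RNAs differed for camptothecin and hydroxyurea (71.6 % of all features), 43 for camptothecin and MMS (75.7 %), and 45 for camptothecin and phleomycin (78.7 %). The pairs without camptothecin gave 32 for hydroxyurea and MMS (72.4 %), 31 for hydroxyurea and phleomycin (70.3 %), and 31 for MMS and phleomycin (71.0 %). These shares of the 70, from 44.3 to 64.3 %, were below those of all features in every pair. For differences of 2-fold or more that passed, the order was the reverse in every pair. Between camptothecin and hydroxyurea, 12.9 % of the 70 were so much higher with camptothecin and 25.7 % lower. The shares were 2.18 and 7.77 % of all features, and 3.27 and 25.7 % of the later-numbered non-coding RNAs.

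The position of the RNAs was described from the annotation. Of the 67 found there, 45 lie on chromosome I, 12 on II and 10 on III, and 9 lie within 100 kb of a chromosome end. Their median length was 445 bases, from 173 to 3776, against 1213 bases for the later-numbered non-coding RNAs, and their median GC content was 31.8 %. Of the 67, 57 overlap a protein-coding gene or lie within 500 bases of one, and 13 overlap one on the opposite strand. Chromosome, distance to an end and distance to a gene were not counted over all features, so these numbers have no background here.

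Cover by other features went with low counts in the whole set of 151 identifiers. Of the 67 found RNAs with 20 or more counts, 43 are overlapped by no other feature and 12 are covered over 75 % or more of their span. Of the 64 found identifiers with fewer counts, 15 are not overlapped and 45 are covered to that extent. Only 46.4 % of the early identifiers reached 20 counts, against 71.3 % of the later-numbered ones and 92.9 % of protein-coding genes. How the authors' counting treated reads shared by overlapping features was not tested.

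**Figure D4:**
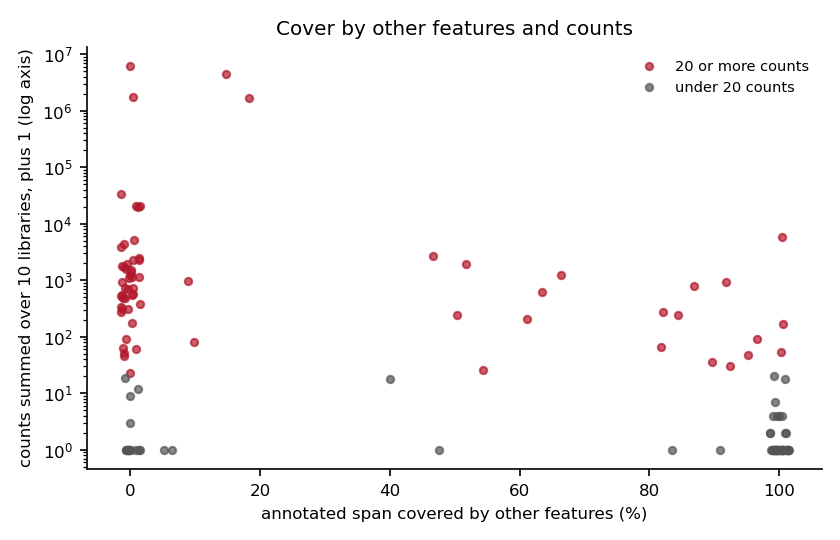
Counts summed over the 10 libraries, plus 1 (log axis), against the percent of the annotated span that other features cover, for the 131 early identifiers found in the annotation. RNAs with 20 or more counts gather at 0 % cover, while 45 of the 64 identifiers with fewer counts lie at 75 % or more; points are shifted sideways by up to 1.5 so that they can be seen.

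Of the 70 RNAs, 17 are uncertain because they are covered to 75 % or more or have a near-identical copy. Among these, 3, 7, 5 and 8 rose with camptothecin, hydroxyurea, MMS and phleomycin and 1, 3, 5 and 1 fell. The shares of rises were 17.6, 41.2, 29.4 and 47.1 %, against 37.1, 44.3, 43.0 and 46.8 % of all features, and those of hydroxyurea and phleomycin were near this background. Among the other 53, 23, 40, 28 and 36 rose (43.4, 75.5, 52.8 and 67.9 %) and 3, 2, 3 and 5 fell. Falls over all features were 32.6, 34.4, 36.4 and 35.9 %.

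Each RNA was set beside the protein-coding gene it overlaps or lies nearest to, in 64 pairs in which both were tested. The median change of these neighbours was -0.02 with camptothecin, 0.01 with hydroxyurea, -0.07 with MMS and 0.04 with phleomycin on the log2 scale, while the RNAs of the same pairs had medians of 0.70, 1.09, 0.91 and 1.14. Across the 64 pairs, Pearson's r between the changes was 0.58, 0.46, 0.42 and 0.33, and Spearman's rho was 0.27, 0.31, 0.34 and 0.31. Across the 48 pairs with no overlap r was 0.21, 0.45, 0.41 and 0.21. Without prl61, whose reads may be shared with SPAC186.07c, r across the other 63 pairs was 0.22, 0.42, 0.39 and 0.22. These values describe pairs that share libraries and carry no test.

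**Figure D5:**
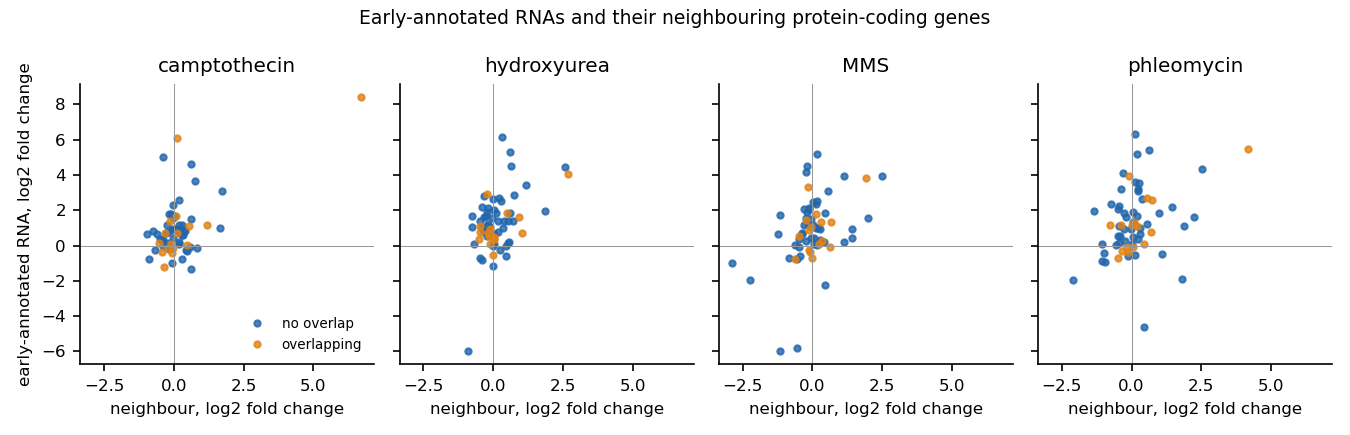
Log2 fold change of the early-annotated RNA (vertical axis) against that of its overlapping or nearest protein-coding gene (horizontal axis) in 64 pairs, with 1 panel per agent and overlapping pairs in orange. Most neighbours lie near 0 while their RNAs are spread upward, and the pair prl61 and SPAC186.07c stands alone at the upper right with camptothecin; the upward spread is on the scaling by protein-coding genes, and with quantile normalization the median of the 70 RNAs was -0.05, 0.27, -0.05 and 0.0055.

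Genes that make or destroy non-coding transcripts moved in both directions in the same libraries. The list named 38 genes, of which ars2 and pir2 are the same feature, leaving 37. With camptothecin 9 rose and 18 fell, with hydroxyurea 17 rose and 16 fell, with MMS 16 rose and 19 fell, and with phleomycin 11 rose and 20 fell. The shares of rises were 24.3, 45.9, 43.2 and 29.7 %, against 37.1, 44.3, 43.0 and 46.8 % of all features, so that those of hydroxyurea and MMS were near the background. The shares of falls were 48.6, 43.2, 51.4 and 54.1 %, against 32.6, 34.4, 36.4 and 35.9 %. The medians of the list were -0.07, 0.02, -0.08 and -0.19 on the log2 scale, against 0.04, 0.09, 0.07 and 0.11 over all tested features.

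The helicase gene mtr4, which feeds RNA to the nuclear exosome, fell under all 4 agents (-0.50, -0.54, -0.83 and -1.13), as did air1, a partner of the same complex (-0.42, -0.39, -1.14 and -0.70). The exosome gene rrp40 fell as well (-0.26, -0.49, -0.54 and -0.99), while the exosome gene mtr3 rose (0.98, 0.59, 0.55 and 0.45). The exosome nuclease gene rrp6 rose with camptothecin, hydroxyurea and phleomycin (0.46, 0.45 and 0.46) and fell slightly with MMS (-0.10). Of the genes that mark meiotic transcripts for removal, red1 rose in each comparison (0.15, 0.26, 0.92 and 0.51). Others of the list fell in each, such as pla1 (-0.16, -0.24, -0.11 and -0.19) and rmn1 (-0.08, -0.12, -0.11 and -0.64). Changes of red5 (0.04, -0.28, 0.32 and 0.20) and iss10 (-0.17, -0.12, 0.26 and -0.03) had both signs, and not all passed. The gene mmi1 rose with camptothecin and MMS (0.50 and 0.39), fell with hydroxyurea (-0.16) and was at 0.0032 with phleomycin (adjusted p = 0.944). Whether the levels of these genes bear on those of the non-coding RNAs was not tested.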

How the data were processed

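Total RNA of 10 libraries was sequenced, and the authors deposited 1 table of raw counts per feature, with 1 column per library. The submitters' processing notes name HISAT2 and StringTie. Their versions, the genome build, the annotation, the counting tool and the strand setting were not given in the sources used here. Identifiers were matched to RefSeq's annotation of ASM294v3, and near-identical copies (95 % identity over 50 % of the length or more) were sought with blastn 2.17.0+.

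The set and the gene list were chosen with earlier results of these data known. Features with 20 or more counts over the 10 libraries were kept (5819), which keeps every RNA of the set. Libraries were scaled by the median ratio of 4712 protein-coding features to the geometric mean of the 10 libraries (factors 0.956 to 1.08). The fit used glmQLFit and glmQLFTest of edgeR 4.0.16 under R 4.3.3 in 1 model of 5 groups, after tests on simulated data, with Benjamini-Hochberg adjustment over all features. The SE is the size of the log2 value over the root of the F statistic. Chi-square per feature between the 2 libraries of a group was 3.36 to 3.72, above the 1 that counting noise gives where counts are independent. Libraries with the same replicate number did not deviate together across groups (correlation of deviations -0.023 to 0.036).

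RNAs were named by rule: the 6 that rose and the 6 that fell most per comparison at 1 CPM or more with separate groups and under 75 % cover, the 10 most abundant, up to 8 that changed 1 way in all 4 comparisons and up to 8 in both directions, known structural RNAs, and those nearest the minimum. The bounds at low counts, prl2, IRC1-R and SPNCRNA.147 were chosen after the values were seen. Alternatives used DESeq2 1.42.0 and limma 3.58.1.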

Additional observations from a re-analysis of the deposited data

How the results depend on the processing

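Quantile normalization (limma) moved the set most, with members higher falling to 24 (hydroxyurea), 18 (MMS) and 19 (phleomycin), members lower rising to 10 (camptothecin), 9, 18 and 17, and medians of -0.05233, 0.265, -0.05217 and 0.005494. It sets the value at each rank equal in every library, so an RNA that keeps its rank shows a change of 0 whatever its level. Under this normalization mrp1 was at 0 in the camptothecin, MMS and phleomycin comparisons and rrk1 in that of camptothecin. It also turned the sign of SPNCRNA.117 (-0.28 with camptothecin, -0.23 with MMS), prl54 (-0.19 with camptothecin, -0.69 with hydroxyurea), SPNCRNA.122 (-0.33 with hydroxyurea, -0.96 with MMS, -0.15 with phleomycin), SPNCRNA.01 (-0.25 with hydroxyurea, -0.47 with MMS), prl59 (-0.064 with hydroxyurea, -0.019 with phleomycin), SPNCRNA.163 (-0.20) and SPNCRNA.186 (-0.083) with hydroxyurea, SPNCRNA.175 with MMS (-0.44), and prl58 (-0.046), SPNCRNA.70 (-0.19), rrk1 (-0.48) and prl53 (0.011) with phleomycin. TMM scaling turned mrp1 (-0.021) and SPNCRNA.01 (-0.0066) with MMS and prl58 (-0.066) with phleomycin, as did DESeq2 (-0.025, -0.010 and -0.074), which also turned rrk1 with phleomycin (-0.0053). The causes were not tested. Medians were 0.61, 0.61 and 1.04 with TMM (camptothecin, MMS, phleomycin), 0.60 and 0.70 with library totals (camptothecin, MMS), 0.62 and 1.03 with DESeq2 (MMS, phleomycin), 0.63 with filterByExpr (MMS), 0.50 and 0.64 with only the 2 groups compared (camptothecin, MMS), 0.71 and 0.66 without covered or copied members, and, chosen after seeing the data, 0.59 and 0.63 with counts halved. Without covered or copied members 2 were lower with hydroxyurea and 3 with MMS.

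The replicate block left 2 members lower with camptothecin (from 4) and changed no other count by over 1.5 times. Among the RNAs named, it ended the camptothecin calls of SPNCRNA.80 (adjusted p = 0.0602), SPNCRNA.155 (0.0594) and SPNCRNA.166 (0.0566), the MMS calls of SPNCRNA.117 (0.0529) and SPNCRNA.186 (0.116) and the phleomycin call of SPNCRNA.01 (0.0553). Leaving out 1 library gave 22 to 26 members higher and 2 to 4 lower with camptothecin, 38 to 47 and 4 to 5 with hydroxyurea, 28 to 34 and 4 to 8 with MMS, and 39 to 44 and 4 to 7 with phleomycin, the lone library of a group being assumed to vary like the others. Medians then ran from 0.5112 to 0.636, 0.964 to 1.095, 0.5583 to 0.7141 and 1.008 to 1.153. Signs turned among these values for changes that had not passed: prl54 (-0.11 to 0.29 with camptothecin, -0.10 to 0.30 with hydroxyurea), SPNCRNA.122 with MMS (-0.19 to 0.31), SPNCRNA.117 with camptothecin (-0.095 to 0.68), SPNCRNA.186 (-0.58 to 0.16 with camptothecin, -0.51 to 0.25 with phleomycin) and prl58 with phleomycin (-0.029 to 0.074). The numbers of members that differed between agents kept within 1.5 times under every alternative run on them.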

Other observations

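Low counts were more often even than odd. Of 174 values of 10 to 49 counts in the set, 60.34 % were even, as were 62.36 % of 3379 such values over all features, against 50.72 % of values of 500 to 5000. Halving the counts left the number of RNAs that rose or fell in each comparison within 1.5 times.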
